A study of Mus musculus with 10 samples.

Results

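Matrix metalloproteases, ADAMTS proteases and their tissue inhibitors (TIMPs) were examined in mouse bone marrow mesenchymal stromal cells (MSCs), fibroblast-like cells that adhere to the culture dish. The members were all genes whose symbol in the array's annotation was Mmp, Adamts or Timp followed by a number. The rule reads symbols only. There were 44 of them among 19938 genes, 22 Mmp, 18 ADAMTS and 4 TIMP genes. Mmp15 and Adamts2 were not analysed here. RNA had been measured in 5 preparations, labelled MSC I, MSC II, MSC III, MSC IV and MSC V, on 2 arrays each. All came from the marrow of female C57BL/6J mice aged 6 to 8 weeks, and all were cultured in MesenCult medium with its mesenchymal supplement and harvested at passage 16 to 17. No preparation was a control or had received a treatment, so each was compared with the mean of the other four and with every other preparation. The labels do not say whether the 2 arrays of a preparation came from separate cultures. The p-values therefore measure the spread between arrays, which may be technical, and the 5 preparations differ in ways that the labels do not describe. In the deposited values the mean of the 5 first arrays equals that of the 5 second arrays for every one of 35399 probe sets, to within 6e-05 log2, while the 15 other ways to take 1 array per preparation gave median differences of 0.0512 to 0.072 log2. The labels name no step that does this. A fit of preparation means therefore counts 5 residual degrees of freedom where 4 remain, so its p-values are somewhat too small. A fit with the replicate number as a block counts 4, and its value is given beside each named call that it ends. A spread between the arrays of 1 preparation is also mirrored, with opposite sign and in sum, in the other preparations.

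Metalloproteases use a zinc ion to cut proteins of the extracellular matrix. They are made as inactive precursors, and collagenases, gelatinases, stromelysins and the membrane-bound types differ in the matrix proteins they cut. ADAMTS proteases are secreted relatives with thrombospondin repeats, among them enzymes that cut the proteoglycans aggrecan and versican, enzymes that trim procollagen, and enzymes that cut cartilage oligomeric matrix protein (COMP). TIMPs bind the active site of the Mmp enzymes and block it, and Timp3 also blocks ADAMTS enzymes that cut aggrecan. In bone marrow, stromal cells are a main source of the matrix, of the enzymes that remodel it and of the inhibitors.

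Levels are deposited log2 expression values, on which a difference of 1 is a fold of 2. The median of the whole table was 6.55 log2. Levels of different genes come from different probes and are not compared with each other. Pearson correlations over all genes were 0.990 to 0.994 between the arrays of 1 preparation and 0.922 to 0.986 between arrays of different preparations, and no array stood apart from its replicate. All 10 of the analysed stromal markers lay above the table median on some array, 6 of them on every array. Of the 10, 7 differed among preparations (70%, against 14.6% of all genes), and 5 did with the replicate block, where 11.3% of all genes did. Pdgfra was higher in MSC I (3.06 ± 0.50 log2 against the other four, SE, limma adjusted p = 0.00546) and lower in MSC IV (-2.36 ± 0.50 log2, adjusted p = 0.0204). Nt5e and Eng were higher in MSC IV (4.26 and 3.91 log2), and Vcam1 was lower there (-3.49 log2). The part of these markers in the members' differences was not tested. None of 7 neutrophil markers and none of 6 endothelial markers reached the table median on any array. Of 8 macrophage markers 2 did, Cd68 and Cd14, both highest in MSC V, and Ptprc, Csf1r, Adgre1, Itgam, Lyz2 and Aif1 did not. Of 7 osteoclast markers only Itgb3, which other cells also make, did, with its highest mean in MSC I. In such bulk RNA, fewer cells of a type and less RNA per cell cannot be told apart.

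Of the 44 genes, 14 differed among the 5 preparations, 5 Mmp, 7 ADAMTS and 2 TIMP genes (limma's moderated F test, Benjamini-Hochberg adjusted p under 0.05 over all genes, and at least 1 log2 between the highest and the lowest preparation mean). This was 31.8% of the members, against 14.6% of all 19938 genes tested. With the replicate block, 12 members differed, all but Mmp16 and Timp1, against 11.3% of all genes. The median range of preparation means was 0.84 log2 over the 44 members and 0.43 log2 over all genes. Of all 44, 19 lay below the table median on every array, between 4.58 and 6.15 log2, and 1 of them, Mmp27, was called. RMA values of this size are compressed, so a low level is no evidence that a transcript was absent, and log2 differences measured against such levels may be too small. The other 18 of these had ranges of 0.07 to 0.81 log2. At the upper end, 18 members lay above the table median on every array.

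**Figure D1:**
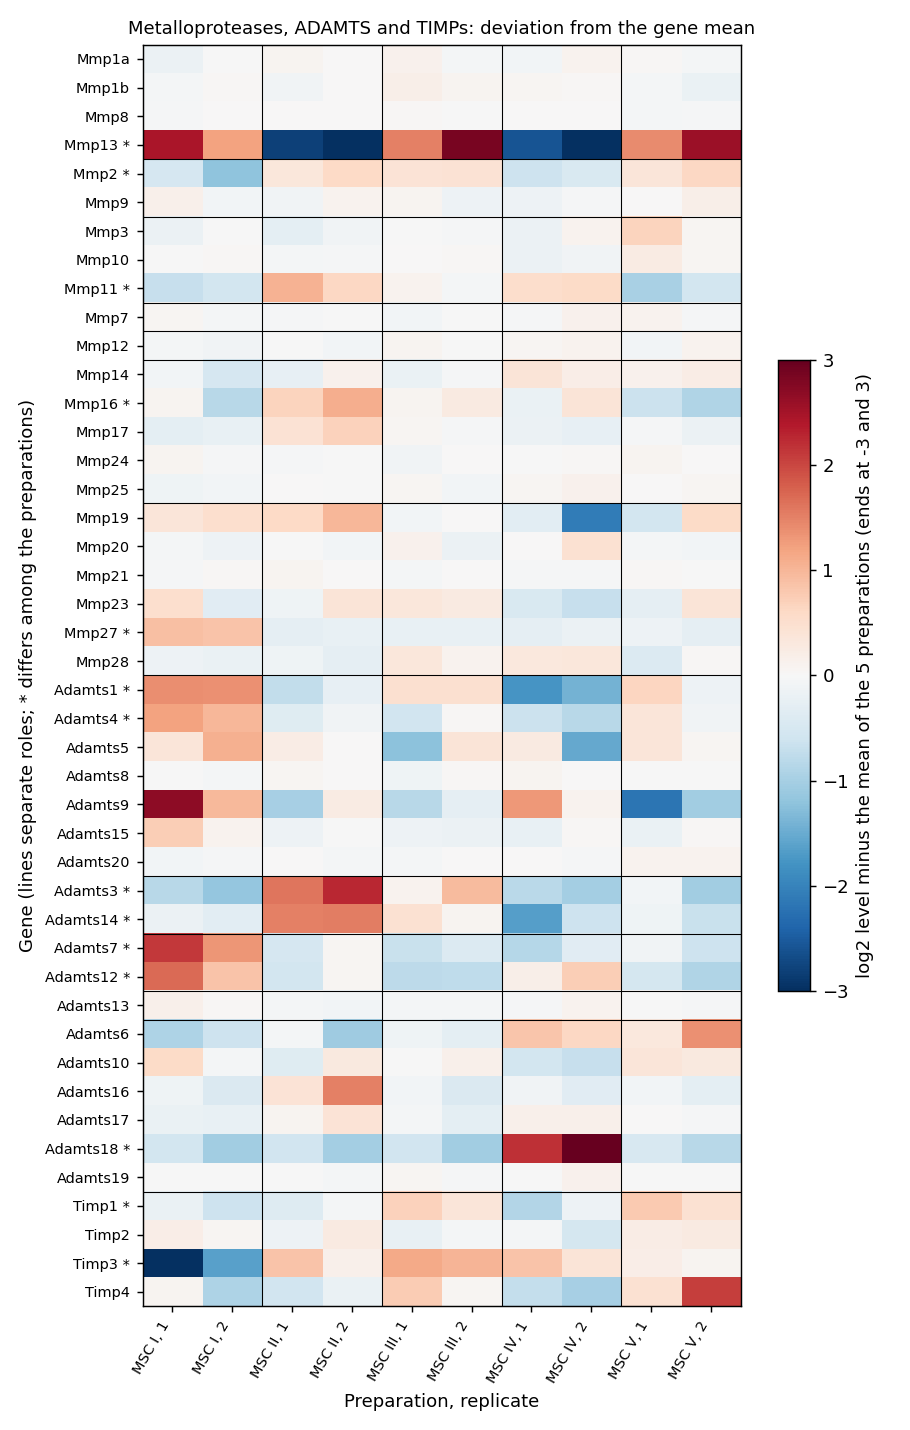
Each row is 1 of the 44 genes and each column 1 array. Colour gives the log2 level minus the mean of the 5 preparation means, with colours ending at -3 and 3, lines between roles, and an asterisk on the 14 genes that differed among preparations. Mmp13 is red in MSC I, MSC III and MSC V and blue in MSC II and MSC IV, and Adamts18 is red in MSC IV alone.

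Set against the other four, MSC I had 7 members higher (15.9% of 44, against 4.15% of all genes) and 3 lower (6.82%, against 2.67% of all genes). The higher ones were Mmp13, Mmp27, Adamts1, Adamts4, Adamts9, Adamts7 and Adamts12, and the lower ones were Mmp2, Adamts3 and Timp3. In MSC II, 5 members were higher (11.4%, against 1.28%) and 1 was lower (2.27%, against 1.26%). Those higher were Mmp11, Mmp16, Adamts3, Adamts14 and Adamts16, and Mmp13 was lower. In MSC III, Mmp13 was the 1 member higher (2.27%, against 0.567%), and 0 were lower by limma, where 0.446% of all genes were. At an unadjusted p under 0.05, 4 members were lower in MSC III, and limma with trend and robust settings also called 0. In MSC IV, 1 member, Adamts18, was higher (2.27%, against 1.77%), and 3 were lower, Mmp13, Adamts1 and Adamts14 (6.82%, against 3.84%). In MSC V, Mmp13 was the 1 member higher (2.27%, against 1.05%), and 0 were lower by limma, where 0.662% of all genes were. There, 6 members were lower at an unadjusted p under 0.05, and 0 with trend and robust settings. With the replicate block, 6 members were higher and 2 lower in MSC I, 3 were higher and 1 lower in MSC II, 0 were called in MSC III or MSC V, and the MSC IV calls were kept. The shares of all genes given above are those of the fit without the block. Single arrays also carried part of these counts. The MSC I total of 10 was 6 without its first array. The MSC II total of 6 was 3 without its first array, 1 without its second and 3 without the first MSC V array. The Mmp13 call of MSC III was lost without either array of MSC II, MSC III, MSC IV or MSC V or the second MSC I array. That of MSC V was lost without either array of MSC II, MSC IV or MSC V, the first of MSC III or the second of MSC I (adjusted p up to 0.258 for MSC III and 0.187 for MSC V).

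**Figure D2:**
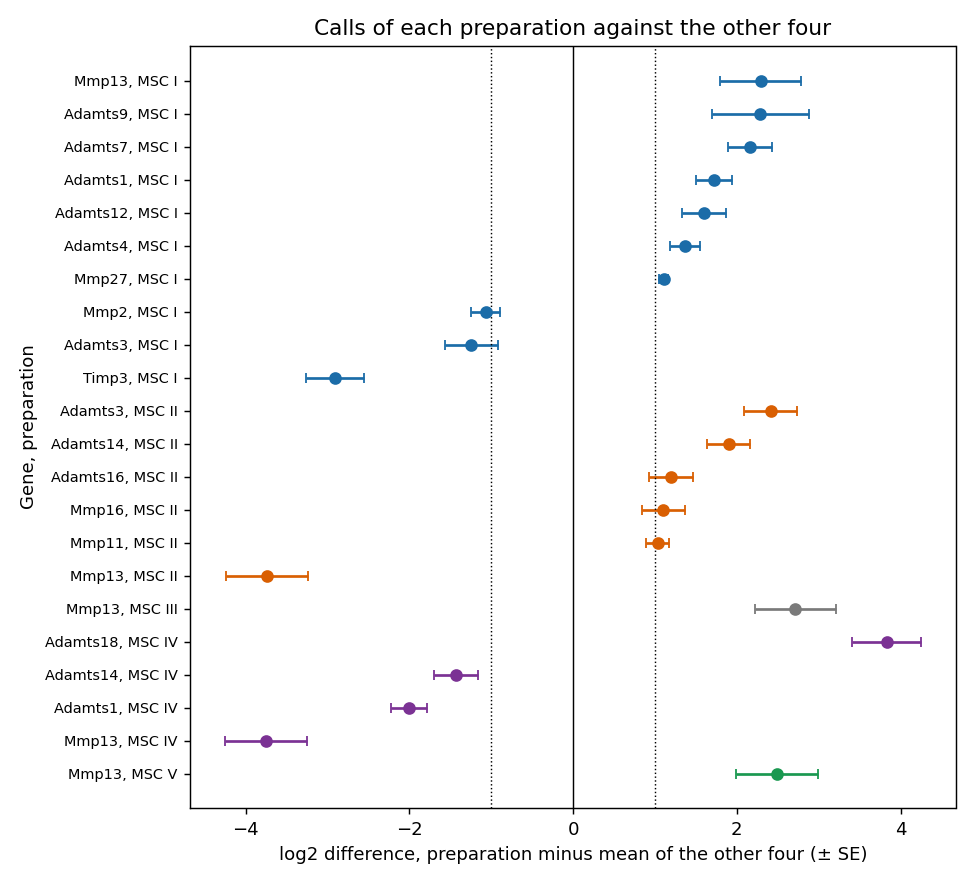
Points show the log2 difference (preparation minus the mean of its 4 counterparts) for the 22 member and preparation combinations that passed the test, with SE from the fit as bars and dotted lines at -1 and 1. Of these, 10 belong to MSC I. The largest positive difference is that of Adamts18 in MSC IV, 3.83 log2, and the largest negative ones are those of Mmp13 in MSC IV and MSC II.

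Between single preparations, 56 of 440 member and pair combinations passed (12.7%, against 4.8% of all gene and pair combinations). With the replicate block 44 passed, while the 4.8% belongs to the fit without the block. MSC I took part in 37 of the 56 (66.1%), and in 62% of the calls over all genes. MSC I differed from MSC II in 13 members (29.5%, against 7.75% of all genes), from MSC IV in 9 (20.5%, against 10.8%), from MSC V in 8 (18.2%, against 5.48%) and from MSC III in 7 (15.9%, against 5.75%). MSC III and MSC V differed in 0 members by limma, in 6 at an unadjusted p under 0.05 and in 0 with trend and robust settings, where 0.948% of all genes differed.

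Among the 4 genes grouped as collagenases, a class named for cutting the triple helix of fibrillar collagen, Mmp13 was the one that differed. It encodes collagenase 3, the main collagenase of mouse bone and cartilage. Mmp13 measured 11.24 and 10.01 log2 in MSC I, 10.30 and 11.63 in MSC III, and 10.22 and 11.35 in MSC V. It measured 6.00 and 5.60 in MSC II, and 6.21 and 5.38 in MSC IV. Every array of the first 3 preparations lay above every array of MSC II and MSC IV by more than the spread between replicates, and MSC II and MSC IV overlapped. The range of means was 5.18 log2 (F test, adjusted p = 0.00207), and all 6 pairs of a high with a low preparation passed, while no pair within the high or within the low ones did. Against the other four, Mmp13 was lower in MSC II (-3.74 ± 0.50 log2, SE, adjusted p = 0.00640, or 0.0667 without its second array) and in MSC IV (-3.75 ± 0.50 log2, adjusted p = 0.00384). The difference of MSC I, 2.29 ± 0.50 log2 (adjusted p = 0.0163), was 1.68 log2 with adjusted p = 0.149 without its first array. Those of MSC III and MSC V ended with the replicate block (2.72 log2 with adjusted p = 0.107, and 2.49 log2 with adjusted p = 0.0804).

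Mmp13 stands at one end of a cluster on chromosome 9 in which 10 members follow each other with no other coding gene between them, in the order Mmp13, Mmp12, Mmp1b, Mmp3, Mmp1a, Mmp10, Mmp8, Mmp27, Mmp20 and Mmp7. The other nine lay below the table median on every array, and of these only Mmp27 differed among preparations. Mmp27 measured 6.15 and 6.11 log2 in MSC I, and 4.98 and 5.03 in MSC II, 5.03 and 5.03 in MSC III, 4.97 and 5.07 in MSC IV, and 5.09 and 4.98 in MSC V. Both MSC I arrays lay above all other arrays, by 1.10 ± 0.05 log2 against the other four (adjusted p = 2.98e-05), while the Mmp13 arrays of MSC I overlapped with those of MSC III and MSC V. The stromelysins Mmp3 and Mmp10, the collagenases Mmp1a, Mmp1b and Mmp8, the matrilysin Mmp7, the macrophage elastase Mmp12 and the tooth enamel protease Mmp20 had ranges of 0.07 to 0.56 log2 and were not called.

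The sequences before the starts of 4 of these genes with shared letters, and of Mmp27, are shown because Mmp13 alone among the 4 lay above the table median on any array. They are the 110 bases before the transcript start in RefSeq (build GRCm38.p6, plus strand), at chr9:7272404-7272513, chr9:7445712-7445821, chr9:7464031-7464140, chr9:7502232-7502341 and chr9:7571286-7571395. Capitals mark the AP-1 letters TGANTCA, the TATA box letters TATAAA and the RUNX letters TGTGGT, each searched on both strands, and no match overlaps another in these 5 windows.
Mmp13: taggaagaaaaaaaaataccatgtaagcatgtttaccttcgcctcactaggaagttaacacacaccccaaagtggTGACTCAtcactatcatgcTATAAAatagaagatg
Mmp3: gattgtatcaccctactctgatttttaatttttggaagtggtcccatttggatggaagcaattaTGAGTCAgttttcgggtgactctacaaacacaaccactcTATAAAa
Mmp1a: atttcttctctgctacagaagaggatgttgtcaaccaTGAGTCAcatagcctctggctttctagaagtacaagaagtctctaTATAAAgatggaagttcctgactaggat
Mmp10: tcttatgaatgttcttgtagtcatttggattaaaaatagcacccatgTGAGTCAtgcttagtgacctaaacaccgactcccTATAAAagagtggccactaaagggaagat
Mmp27: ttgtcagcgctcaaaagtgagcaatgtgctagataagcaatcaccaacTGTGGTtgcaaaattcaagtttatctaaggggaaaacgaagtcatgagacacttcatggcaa
The AP-1 letters began 35 bases before the start of Mmp13, 46 before Mmp3, 73 before Mmp1a and 63 before Mmp10. In the 250 bases before the start, 8 of the 10 cluster genes held them at a start, all but Mmp8 and Mmp27. They were in 0 of the 20 members outside the cluster that have an entry, and in 6.75% of 32841 promoters of all genes. A gene with several starts, such as Mmp7 or Mmp12, counted if any start held the letters, while the share of all promoters counts each start. The TATA box letters were in 7 of the 10 and in 2 of the 20, against 12.4% of all promoters. Of the 8 genes with the AP-1 letters, 1, Mmp13, differed among preparations. The RUNX letters were in the windows of 6 of the 30 members with an entry, against 14% of all promoters. In Mmp13 they began 118 bases before the start, outside the 110 bases shown. A match is a run of letters and not a shown binding site.

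**Figure D3:**
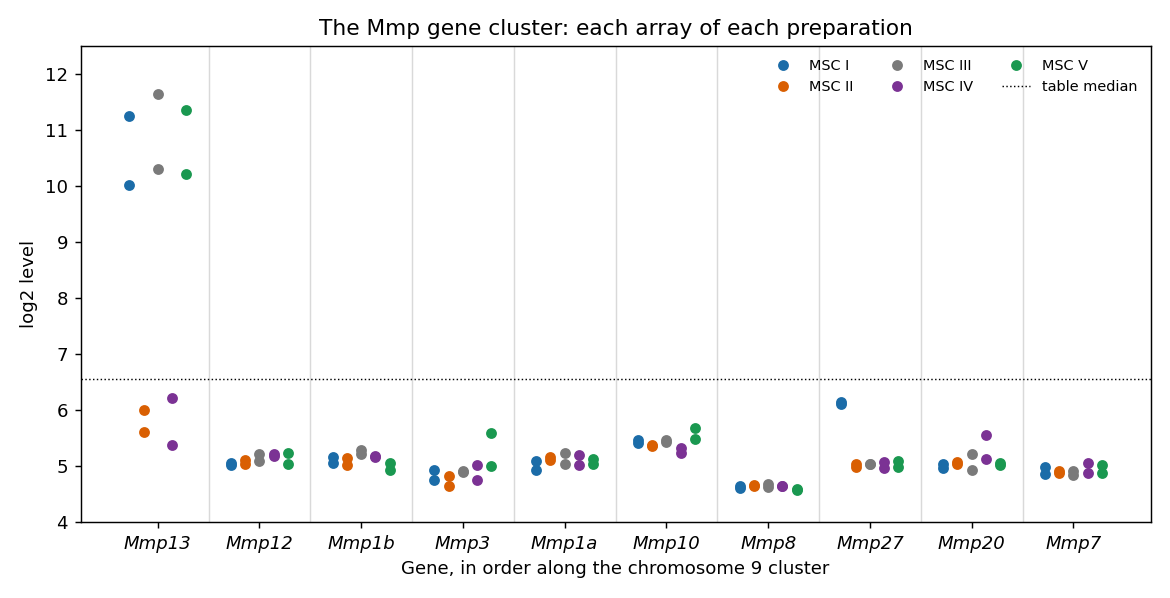
Points are single arrays (log2 level, vertical axis), coloured by preparation, for the 10 cluster genes in their order along chromosome 9. The dotted line is the table median. Mmp13 splits into 6 arrays at 10.01 log2 or more and 4 arrays at 6.21 log2 or less, Mmp27 is raised in MSC I, and the other 8 genes lie between 4.58 and 5.68 log2.

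Of the gelatinases, which cut denatured and basement membrane collagen, Mmp2 measured 11.83 and 11.13 log2 in MSC I and 11.72 and 11.87 in MSC IV. It measured 12.67 and 12.94 in MSC II, 12.75 and 12.78 in MSC III, and 12.71 and 12.96 in MSC V. MSC I and MSC IV overlapped and lay below the other three preparations. MSC I was 2.10-fold lower than the other four (-1.07 ± 0.18 log2, adjusted p = 0.00580), a difference of -0.72 log2 without its second array, under the minimum of 1 log2. The range was 1.35 log2 (adjusted p = 0.00985). Mmp9, the gelatinase of neutrophils and osteoclasts, lay between 5.02 and 5.35 log2 on all arrays and had an adjusted p of 0.749.

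Mmp11, stromelysin 3, is activated inside the cell by furin-like enzymes. It measured 11.18 and 10.74 log2 in MSC II, 10.65 and 10.70 in MSC IV, and 10.24 and 10.07 in MSC III. In MSC I it measured 9.44 and 9.58, and in MSC V 9.17 and 9.57. MSC II and MSC IV were thus highest, MSC III was between, and MSC I and MSC V overlapped below. MSC II was higher than the other four by 1.03 ± 0.14 log2 (adjusted p = 0.00691), which fell under 1 log2 in 3 alternatives (0.82 log2 without its first array, 0.98 without the first MSC V array and 0.99 with centred arrays). MSC II exceeded MSC V by 1.59 ± 0.18 log2 (adjusted p = 0.00505) and MSC IV exceeded MSC V by 1.31 ± 0.18 log2 (adjusted p = 0.00659).

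Among the 5 membrane-type enzymes, Mmp14, which activates the Mmp2 precursor at the cell surface together with Timp2, lay between 10.79 and 11.69 log2 on all arrays and was not called (range 0.59 log2, adjusted p = 0.160). Mmp16, a membrane-spanning relative, was highest in MSC II at 9.32 and 9.73 log2, above 8.73 and 7.82 in MSC I, 8.73 and 8.91 in MSC III, 8.44 and 9.03 in MSC IV, and 8.00 and 7.73 in MSC V. Its range of 1.66 log2 passed narrowly (adjusted p = 0.0477, or 0.0959 with the replicate block), MSC II against the other four ended with the block too (adjusted p = 0.0870), and its calls were lost when either MSC II array or several others were left out. Mmp17, which is anchored by a lipid, was also highest in MSC II, at 5.85 and 6.11 log2, against 5.14 to 5.47 on the other arrays. Its adjusted p was 0.00688, but its range of 0.81 log2 was under the minimum. Mmp24 and Mmp25 lay below the table median throughout, with ranges of 0.09 and 0.20 log2.

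Of the remaining Mmp genes, Mmp19 had the widest range, 2.00 log2, but was not called (adjusted p = 0.168). Its MSC IV arrays, 10.01 and 8.23 log2, differed from each other by nearly as much. Mmp23 lay between 10.35 and 11.57 log2 (range 0.88, adjusted p = 0.329) and Mmp28, epilysin, between 6.67 and 7.42 log2 (range 0.52, adjusted p = 0.0646). Mmp21 lay between 5.07 and 5.21 log2.

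**Figure D4:**
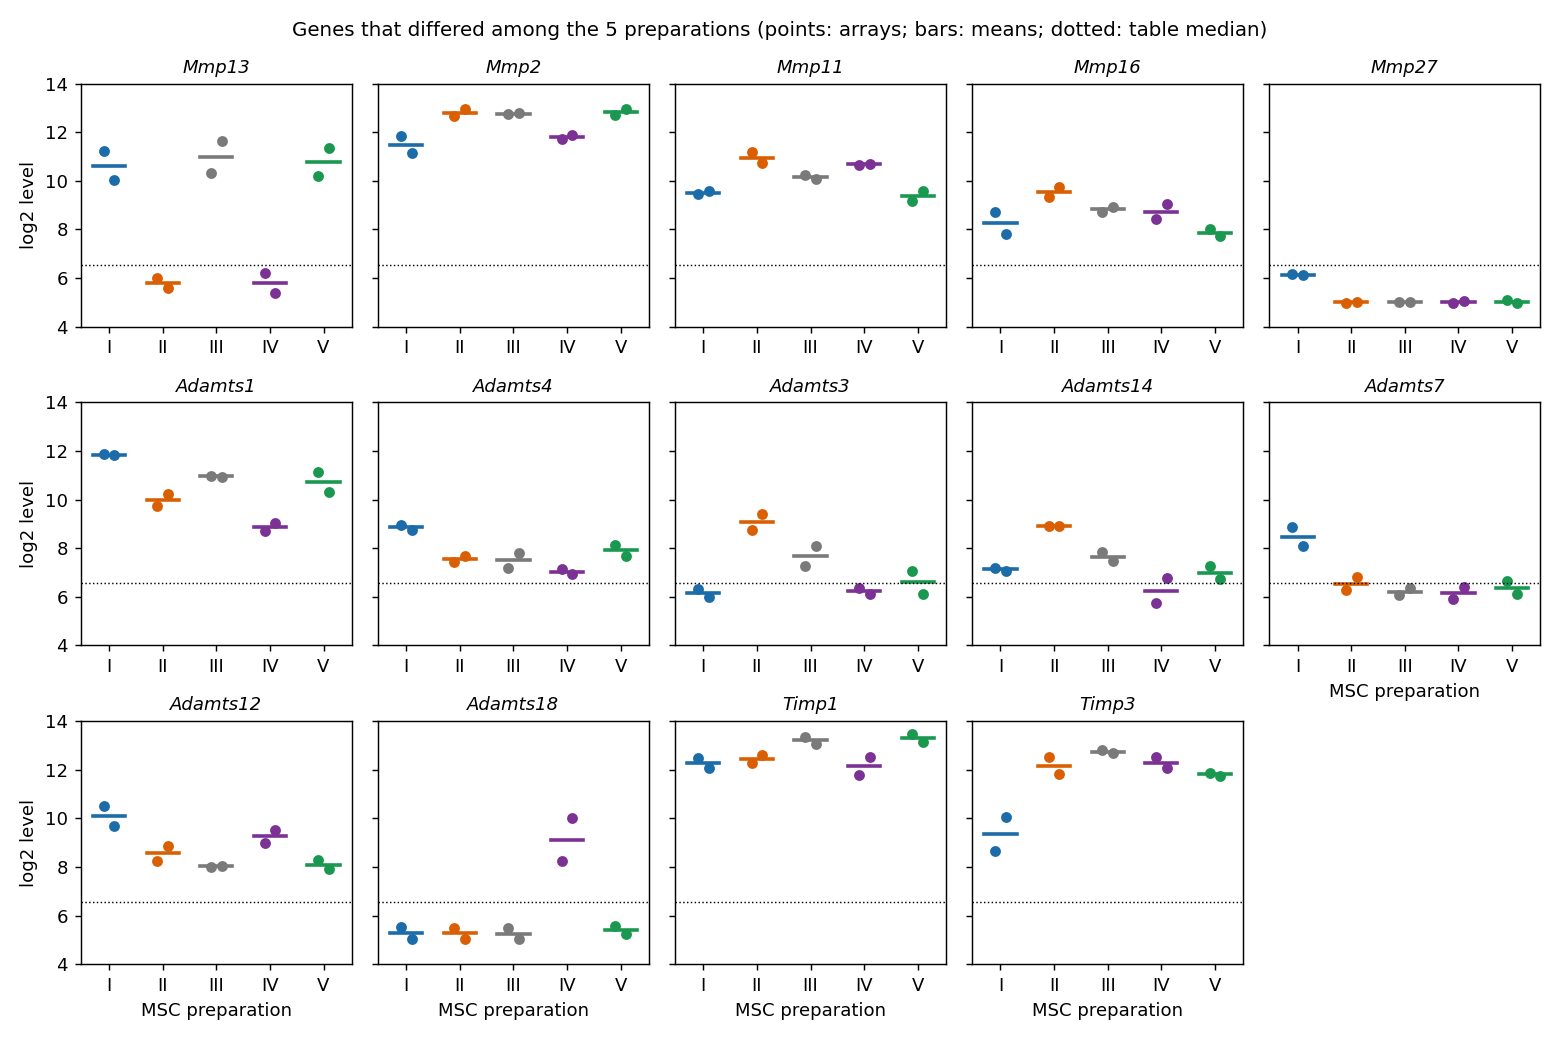
Each panel is 1 of the 14 genes that differed among the preparations, with single arrays as points, preparation means as bars and the log2 level on the vertical axis from 4 to 14. The dotted line is the table median. Timp3 is low in MSC I alone, Adamts3 and Adamts14 are highest in MSC II, and Adamts1, Adamts4, Adamts7 and Adamts12 are highest in MSC I.

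The 7 proteoglycan-cutting ADAMTS genes had their highest mean in MSC I in 5 cases, and 3 of them passed there, where 22.8% of all genes had their highest mean and 4.15% were called higher. Adamts1, which cuts versican and aggrecan, measured 11.86 and 11.84 log2 in MSC I, against 9.73 and 10.23 in MSC II, 10.96 and 10.95 in MSC III, 8.70 and 9.05 in MSC IV, and 11.12 and 10.32 in MSC V. Both MSC I arrays were above all others and both MSC IV arrays below all others. Against the other four, Adamts1 was 3.29-fold higher in MSC I (1.72 ± 0.22 log2, adjusted p = 0.00202) and 4.0-fold lower in MSC IV (-2.0 ± 0.22 log2, adjusted p = 0.00193). MSC I exceeded MSC IV by 2.97 ± 0.28 log2 (adjusted p = 0.000550).

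Adamts4, an aggrecanase, measured 8.98 and 8.76 log2 in MSC I, against 7.42 and 7.67 in MSC II, 7.21 and 7.81 in MSC III, 7.13 and 6.95 in MSC IV, and 8.15 and 7.68 in MSC V. MSC I lay above all other arrays, and the other preparations overlapped in part. The difference of MSC I was 1.37 ± 0.19 log2 (2.58-fold, adjusted p = 0.00262). Its F test, with a range of 1.83 log2 and adjusted p = 0.00937, gave adjusted p = 0.0514 without the first MSC I array.

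Adamts9, another versican-cutting enzyme, measured 12.86 and 11.14 log2 in MSC I, against 9.18 and 10.42 in MSC II, 9.35 and 9.90 in MSC III, 11.47 and 10.26 in MSC IV, and 7.98 and 9.12 in MSC V. The MSC I and MSC IV arrays overlapped, and MSC V was lowest. The range of 3.45 log2 did not pass the F test (adjusted p = 0.0602), while MSC I against the other four did, with 2.29 ± 0.59 log2 and adjusted p = 0.0307 (0.0576 with the replicate block). Without the first MSC I array that difference was 1.43 log2 with adjusted p = 0.250. All 6 probe sets of Adamts9 had their highest mean in MSC I and their lowest in MSC V, with ranges of 2.99 to 4.03 log2. Adamts5, the neighbour of Adamts1 on chromosome 16, measured 10.86 and 11.57 log2 in MSC I, but its MSC III arrays (9.28 and 10.88) and MSC IV arrays (10.76 and 8.96) spread widely, and it was not called (range 1.35 log2, adjusted p = 0.531). Adamts8, Adamts15 and Adamts20 lay below the table median on every array, with ranges of 0.09 to 0.58 log2.

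The procollagen N-proteinases remove the amino-terminal propeptide of fibrillar procollagens, and both analysed members were highest in MSC II. Adamts3 measured 8.76 and 9.41 log2 in MSC II, against 6.32 and 5.99 in MSC I, 7.26 and 8.11 in MSC III, 6.35 and 6.14 in MSC IV, and 7.08 and 6.12 in MSC V. Adamts14 measured 8.90 and 8.91 log2 in MSC II, against 7.20 and 7.07 in MSC I, 7.85 and 7.46 in MSC III, 5.73 and 6.77 in MSC IV, and 7.26 and 6.73 in MSC V. For both genes the MSC II arrays lay above all others, with MSC III next. The pair of MSC II and MSC III did not pass in limma for Adamts3 (1.40 ± 0.41 log2, adjusted p = 0.119) or Adamts14 (1.25 ± 0.34 log2, adjusted p = 0.103). MSC II was higher than the other four for Adamts3 (2.41 ± 0.32 log2, adjusted p = 0.00640) and for Adamts14 (1.90 ± 0.27 log2, adjusted p = 0.00743).

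These calls of MSC II depended on its arrays. Without the second one the adjusted p was 0.0669 for Adamts3 and 0.0697 for Adamts14, and without the first one 0.0529 for Adamts14, with differences of 1.89 to 2.09 log2. The low ends differed between the genes. Adamts3 was also lower in MSC I than in the other four (-1.25 ± 0.32 log2, adjusted p = 0.0310, or 0.0586 with the replicate block, and lost without either MSC I array). Adamts14 was lower in MSC IV (-1.43 ± 0.27 log2, adjusted p = 0.0130), with -0.91 log2 and adjusted p = 0.0539 without the first MSC IV array. Adamts3 was covered by 16 probe sets, and all 16 had their highest mean in MSC II, with ranges of 1.81 to 4.12 log2. The lowest mean was in MSC I for 11 of them and in MSC IV for the other five.

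Both promoters, shown because the genes were both highest in MSC II, are rich in CG pairs, as are those of Timp3 and Adamts18, whose values follow. The 110 bases before each start are given with CG pairs in capitals (RefSeq, GRCm38.p6), at chr5:89883335-89883444, chr10:61273420-61273529 and chr8:113848840-113848949 on the minus strand and chr10:86300302-86300411 on the plus strand.
Adamts3: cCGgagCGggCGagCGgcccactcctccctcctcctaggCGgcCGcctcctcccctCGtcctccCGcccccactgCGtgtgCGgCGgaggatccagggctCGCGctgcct
Adamts14: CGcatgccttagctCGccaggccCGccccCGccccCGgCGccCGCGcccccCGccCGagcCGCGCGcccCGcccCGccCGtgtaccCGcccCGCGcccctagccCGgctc
Adamts18: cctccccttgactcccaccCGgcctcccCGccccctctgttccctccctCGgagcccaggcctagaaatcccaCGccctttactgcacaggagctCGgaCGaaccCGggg
Timp3: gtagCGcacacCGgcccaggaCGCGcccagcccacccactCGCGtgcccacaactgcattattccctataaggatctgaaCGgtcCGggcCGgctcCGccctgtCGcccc
In 250 bases before the start, Adamts3 and Adamts14 had 35 CG pairs each, Timp3 had 18 and Adamts18 had 15. The median over all promoters was 6, and the cluster gene Mmp13 had 1. Many CG pairs were not particular to genes that differed among preparations. Mmp24 and Adamts20, which were not called, had 33 and 32, while the called Adamts12 and Timp1 had 6 each and Mmp27 had 2. The starts are those of the promoter table. For Adamts3 and Adamts18 the RefSeq gene interval begins 334 and 504 bases further upstream, so their windows lie inside it. None of these 4 windows held the AP-1, TATA box or RUNX letters.

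Both COMP-cutting enzymes were highest in MSC I. Adamts7 measured 8.88 and 8.09 log2 in MSC I, against 6.26 and 6.81 in MSC II, 6.09 and 6.35 in MSC III, 5.90 and 6.41 in MSC IV, and 6.64 and 6.12 in MSC V. Adamts12 measured 10.50 and 9.67 log2 in MSC I, against 8.25 and 8.87 in MSC II, 8.02 and 8.05 in MSC III, 8.98 and 9.54 in MSC IV, and 8.28 and 7.90 in MSC V. MSC I lay above every other array for both, and the other four preparations overlapped for Adamts7, while for Adamts12 MSC IV was second. MSC I was higher than the other four for Adamts7 (2.16 ± 0.27 log2, adjusted p = 0.00178) and for Adamts12 (1.60 ± 0.27 log2, adjusted p = 0.00591). Without the first MSC I array the Adamts12 difference was 1.18 log2 with adjusted p = 0.0516.

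Adamts18, an ADAMTS protease with few known substrates, was high in MSC IV alone. It measured 8.26 and 9.999 log2 in MSC IV, against 5.51 and 5.02 in MSC I, 5.50 and 5.05 in MSC II, 5.48 and 5.02 in MSC III, and 5.58 and 5.24 in MSC V. The other eight arrays all lay below the table median and overlapped. The difference of MSC IV was 3.83 ± 0.42 log2 (adjusted p = 0.00189), and all 4 pairs with MSC IV passed. The 2 MSC IV arrays spread more than those of any other preparation (9.13 ± 1.23 log2, SD, n = 2). Their first array was 1.74 log2 below the second, and in the other four preparations the first array was 0.34 to 0.49 log2 above it, which sum to the same size because the replicate means are equal.

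The remaining ADAMTS genes were not called in the F test. Adamts16 was highest in MSC II, at 5.65 and 6.75 log2, against 4.81 to 5.16 on the other arrays. MSC II against the other four passed (1.19 ± 0.27 log2, adjusted p = 0.0357, or 0.0761 with the replicate block), but was lost in 9 of the 10 repeats that left out an array, with 0.64 log2 without the second MSC II array. Adamts6 was lower in MSC I (7.74 and 8.05 log2) than in MSC IV (9.50 and 9.30 log2, difference -1.50 ± 0.41, adjusted p = 0.0354) and MSC V (8.98 and 10.03 log2, difference -1.61 ± 0.41, adjusted p = 0.0445), and with the replicate block both ended (adjusted p = 0.0642 and 0.0861). Its F test had adjusted p = 0.0549. Adamts10 lay between 8.34 and 9.59 log2 (adjusted p = 0.121) and Adamts17 between 7.67 and 8.38 log2 (adjusted p = 0.0765). The Adamts17 probe set used had a range of 0.46 log2. All 5 probe sets of Adamts17 had ranges of 0.21 to 1.01 log2, and 4 of the 5 had their highest mean in MSC II. Adamts13, the enzyme that cuts von Willebrand factor, and Adamts19 lay below the table median throughout, with ranges of 0.17 and 0.10 log2.

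Among the inhibitors, Timp3, which binds to the matrix and also blocks aggrecanases, was lowest in MSC I. It measured 8.65 and 10.04 log2 in MSC I, against 12.52 and 11.82 in MSC II, 12.81 and 12.70 in MSC III, 12.52 and 12.07 in MSC IV, and 11.88 and 11.76 in MSC V. Both MSC I arrays lay below all others by more than the spread among them. Timp3 was 7.53-fold lower in MSC I than in the other four (-2.91 ± 0.35 log2, adjusted p = 0.00162), and all 4 pairs with MSC I passed.

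Timp1, an X-linked inhibitor of most secreted metalloproteases, measured 13.47 and 13.14 log2 in MSC V and 13.37 and 13.05 in MSC III. It measured 12.48 and 12.07 in MSC I, 12.29 and 12.62 in MSC II, and 11.79 and 12.52 in MSC IV. The arrays of MSC V and MSC III lay above all those of the other three preparations, which overlapped. The range of 1.15 log2 passed narrowly (adjusted p = 0.0413, or 0.0859 with the replicate block), between MSC IV and MSC V only, and was lost in 8 of the 10 repeats that left out an array.

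Timp4 measured 7.34 and 8.94 log2 in MSC V, against 6.95 and 5.96 in MSC I, 6.29 and 6.67 in MSC II, 7.63 and 6.93 in MSC III, and 6.16 and 5.87 in MSC IV. Its range of 2.13 log2 did not pass (adjusted p = 0.104), with MSC V and MSC III overlapping. Timp2, which takes part in the activation of Mmp2, lay between 12.20 and 13.00 log2 (range 0.54, adjusted p = 0.241). Of the 4 inhibitors, 3 had their highest mean in MSC V and 3 their lowest in MSC IV. Of all 19938 genes, 3183 had their highest mean in MSC V and 3684 their lowest in MSC IV. Against the other four, no inhibitor was called in MSC V or MSC IV. The lowest limma adjusted p was that of Timp1, 0.0868 in MSC V and 0.0856 in MSC IV. Of the macrophage markers, Cd68 and Cd14 were also highest in MSC V, where Cd68 was called higher and Cd14 was not. Ptprc, Csf1r, Adgre1, Itgam, Lyz2 and Aif1 lay below the table median on every array. The part of these markers in the TIMP values was not tested.

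Other genes of matrix proteolysis were taken from lists. Of 72 analysed, 20 differed among preparations (27.8%, against 14.6% of all genes), with a median range of 0.68 log2. With the replicate block 15 did, where 11.3% of all genes did. Of the 72, 8 were higher in MSC I than in the other four (11.1%, against 4.15% of all genes) and 1 was lower (1.39%, against 2.67%). In MSC IV, 5 were higher (6.94%, against 1.77%) and 8 lower (11.1%, against 3.84%). In MSC II, 3 were higher (4.17%, against 1.28%) and 2 lower (2.78%, against 1.26%). In MSC V, 3 were lower (4.17%, against 0.662%) and 0 higher by limma, with 11 at an unadjusted p under 0.05 and 0 by trend and robust settings. In MSC III, 0 were called by limma in either direction, with 6 higher and 8 lower at an unadjusted p under 0.05 and 0 by trend and robust settings.

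In the plasminogen system, whose protease plasmin activates metalloproteases, 1 of 12 genes was called (8.33%, against 14.6% of all genes). This was Hgf, a growth factor related to plasminogen, with 10.84 and 9.92 log2 in MSC I, and a difference of 3.82 ± 0.70 log2 against the other four (adjusted p = 0.00839). In MSC II it measured 7.30 and 9.78 log2, the second array near the second of MSC I, and elsewhere 4.74 to 6.93 log2. Hgf was also lower in MSC IV (-2.79 ± 0.70 log2, adjusted p = 0.0354, or 0.0686 with the replicate block). Of 21 genes for activation and clearance, 7 were called (33.3%, against 14.6% of all genes). Thbs2, a thrombospondin known to aid the uptake of Mmp2, was higher in MSC I (1.63 ± 0.12 log2, adjusted p = 0.000186) and lower in MSC IV (-2.72 ± 0.12 log2, adjusted p = 8.33e-05). Pcsk6, a proprotein convertase, was higher in MSC IV (2.40 ± 0.34 log2, adjusted p = 0.00473) and lower in MSC V (-2.16 ± 0.34 log2, adjusted p = 0.0159).

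Of 18 ADAM and ADAMTS-like genes, 5 were called (27.8%, against 14.6% of all genes). With the replicate block 2 of the 18 were called, where 11.3% of all genes were. Adam12, a membrane-bound disintegrin protease, measured 9.21 and 9.08 log2 in MSC I, where the other arrays lay between 5.28 and 6.39, and differed there by 3.54 ± 0.25 log2 (adjusted p = 0.000174). Of 21 cathepsins and other proteases, 7 were called (33.3%, against 14.6% of all genes). Fap, a serine protease of activated fibroblasts, measured 9.16 and 8.63 log2 in MSC I and 5.03 to 5.42 elsewhere (3.64 ± 0.15 log2, adjusted p = 1.20e-05). Prss23 was higher in MSC I (2.87 ± 0.17 log2, adjusted p = 7.50e-05) and lower in MSC IV (-2.24 ± 0.17 log2, adjusted p = 0.000487).

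Of 21 matrix substrates, 10 were called (47.6%, against 14.6% of all genes). With the replicate block 8 were called, where 11.3% of all genes were. In MSC I, 7 were higher (33.3%, against 4.15%) and 2 lower (9.52%, against 2.67%), and in MSC IV 6 were lower (28.6%, against 3.84%). In MSC II, 2 were higher and 2 lower (9.52% each, against 1.28% and 1.26%), and in MSC III 2 were higher (9.52%, against 0.567%). Vcan, the versican that Adamts1, Adamts4 and Adamts9 cut, measured 12.75 and 12.63 log2 in MSC I and 7.37 and 7.03 in MSC IV, with 11.33 to 12.15 on the other arrays. It was higher in MSC I than in the other four (2.07 ± 0.20 log2, adjusted p = 0.000712) and lower in MSC IV (-4.79 ± 0.20 log2, adjusted p = 8.19e-05). In MSC III it was higher by 1.12 ± 0.20 log2 (adjusted p = 0.0407, or 0.106 with the replicate block), against a mean that includes the low MSC IV. The MSC III arrays (11.71 and 12.15 log2) overlapped with those of MSC II (11.50 and 12.04 log2) and lay below those of MSC I. Adamts1 was called in MSC I and MSC IV in the same directions as Vcan and was not called in MSC III (0.60 log2, adjusted p = 0.226). Adamts4 was called in MSC I alone, and Adamts9 differed by 0.88 log2 in MSC IV without a call (adjusted p = 0.380). Adamts5, also in the proteoglycan-cutting group, was not called in MSC I (0.90 log2, adjusted p = 0.304) or MSC IV (-0.79 log2, adjusted p = 0.391). Adamts8, Adamts15 and Adamts20 of that group lay below the table median on every array. Fbn2, the microfibril protein fibrillin 2, was higher in MSC II (2.33 ± 0.54 log2, adjusted p = 0.0390, or 0.0807 with the replicate block) and lower in MSC I (-2.96 ± 0.54 log2, adjusted p = 0.00837). The collagen genes Col1a1, Col1a2 and Col3a1 are in this list and also among the stromal markers.

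Among 19 genes of transcription factors and other regulators, 8 were called (42.1%, against 14.6% of all genes). Epas1, an oxygen-regulated factor, measured 9.28 and 9.08 log2 in MSC I and 4.93 to 5.11 on all other arrays (4.18 ± 0.06 log2, adjusted p = 2.01e-07). Mef2c was higher in MSC IV (3.04 ± 0.30 log2, adjusted p = 0.00131) and lower in MSC I (-2.84 ± 0.30 log2, adjusted p = 0.000922). Of 14 inducers and their receptors, 5 were called (35.7%, against 14.6% of all genes). Pth1r, the parathyroid hormone receptor, measured 10.25 and 10.62 log2 in MSC IV and 5.20 to 7.58 elsewhere (4.12 ± 0.40 log2, adjusted p = 0.00128). Against means that include the high MSC IV, it was lower in MSC I (-1.76 ± 0.40 log2, adjusted p = 0.0188) and in MSC II (-1.78 ± 0.40 log2, adjusted p = 0.0352, or 0.0749 with the replicate block). The MSC II arrays (6.23 and 5.20 log2) overlapped with those of MSC V (6.17 and 7.58 log2). Il6 was higher in MSC I (3.31 ± 0.42 log2, adjusted p = 0.00199).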

How the data were processed

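RNA of 5 preparations was measured on 10 single-colour arrays, 2 each, grouped by sample title. The deposited values are log2 expression values of 35399 probe sets, made by the authors with RMA and Partek per the submitters' processing notes. The sources used here give no versions of them. RMA subtracts a background, equalises array distributions by quantiles and compresses low values. Array medians were 6.45 to 6.63 log2. The number of arrays limits the precision. In the deposited log2 values the means of the first and of the second arrays are equal for all 35399 probe sets (to within 0.001 log2), a step the labels do not name, so the main fit counts 1 residual degree of freedom too many and repeats that leave out an array still carry part of it.

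Probe sets with 1 symbol in the platform annotation (21789) were used, 1621 with several and 11989 with none were not. For a gene with more than 1, the set with the highest mean was taken. Members had 68 probe sets, and Adamts3, Adamts9 and Adamts17 had several.

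Preparation means were fitted with limma 3.58.1 (lmFit, eBayes) in R 4.3.3, with tables and figures in Python 3.11.15. All genes entered with no filter on low values, so that every member was tested. A filter to genes with at least 2 arrays above the table median left out 20 members, and one on the mean over 10 arrays left out 21. The moderated F test, the comparison of each preparation (minus the other four's mean) and the 10 pairs were two-sided, with Benjamini-Hochberg adjustment over all 19938 genes. A call needed an adjusted p under 0.05 and 1 log2. Errors after a difference are standard errors of the fit. The scripts were tested on simulated data. The members, lists, thresholds and the rule for named genes were chosen with earlier results of these data known. All members could be named, and of each other list the 4 called genes with the widest range, plus all cell type markers. Of 176 list entries 164 had a value.

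Promoter letters and coordinates came from RefSeq on GRCm38.p6, matched by symbol for 30 of the 44 members. The 7 alternatives and leaving out each array in turn are described in the closing section.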

Additional observations from a re-analysis of the deposited data

How the results depend on the processing

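The alternatives were 2 filters on low values, averaged probe sets, centring, quantile normalisation, trend and robust settings, a block for the replicate number, and each array left out in turn. Of the 14 F calls, 11 were kept under every setting that tested the gene, and Mmp16, Timp1 and Adamts4 were lost under at least 1. Of the 22 calls against the other four, 8 were kept and 14 lost under at least 1, and none reversed. The filter on low values added Adamts9 (adjusted p = 0.0287) and Adamts6 (adjusted p = 0.0276) to the F calls, since fewer genes were adjusted for. Whether the replicate numbers pair the arrays cannot be told from the deposited values, since their equal replicate means force these deviations to cancel (correlations -0.53 to 0.18 over 10 pairs of preparations, mean -0.25). With the replicate block, the members called in MSC III and in MSC V against the other four were 0 each, 4 were called in MSC IV, 12 differed among preparations, 44 member and pair combinations passed, and adjusted p was 0.107 for Mmp13 in MSC III and 0.0804 in MSC V. Leaving out 1 array gave 6 to 11 members called in MSC I, 1 to 5 in MSC II, 0 to 1 in MSC III, 4 to 6 in MSC IV (6 also with trend and robust settings and with the filter on low values) and 0 to 1 in MSC V. It gave 12 to 14 F calls, and centred arrays or trend and robust settings gave 16. The cause of these changes was not tested beyond the smaller number of arrays or, for the block, of residual degrees of freedom. With 2 arrays per preparation, no array could be tested as an outlier.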
